A study of Mus musculus with 8 samples.

Results

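A list of 40 genes of mitosis and DNA replication was followed through ribosome footprints and total RNA of mouse neuron cultures, Eif4g1/Eif4g3 double knockout and wild type. The list gives 23 genes of mitosis and 17 of DNA replication by symbol, and its rule uses names and no measured value. It was nevertheless chosen with earlier results of these data known, so it is not independent of them. The table used here held 39 of them, out of 18301 genes. Mki67 had no row and was not analysed here, so that the mitosis group had 22 measured members and the replication group 17. All 39 passed the filter on low counts, as did 12898 genes in all. Counts of a transcript set were summed per gene, and levels are given as CPM, that is scaled to the library total, after TMM scaling for library composition.

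The cells were cortical glutamatergic neurons by label, grown from mouse ES cells of the CGR8 line and collected at day 8 in vitro. The 4 groups were footprints of Eif4g1/Eif4g3 double-knockout cultures (DKO), footprints of wild-type cultures (WT), total RNA of DKO and total RNA of WT, with 2 libraries each. Both genotypes had received cycloheximide at 100 µg/ml for 5 minutes, which stops ribosomes on the message. The labels give the genes knocked out, and the series title speaks of eIF4G microexons. Whether whole genes or microexons were removed is not given in the labels used here. Nothing in the labels says that the libraries came from separate differentiations, so the p-values speak only of variation among these libraries, which may be technical. Codes in the labels link the footprint and RNA libraries of WT replicate 1, of WT replicate 2 and of DKO replicate 1 to a shared culture; for DKO replicate 2 their form differs. The code of WT replicate 1 begins with the letter c, as those of the DKO libraries do, and that of WT replicate 2 holds only the letters WT.

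A dividing cell first licenses its replication origins by loading the MCM helicase, then copies its DNA in S phase, and later builds a spindle under cyclin-dependent kinase and the Polo and Aurora kinases. Replication genes are typically switched on by E2F factors as cells enter S phase, and mitosis genes are repressed in resting cells and switched on later in the cycle through CHR and CCAAT elements in their promoters. Neurons do not divide, so that in a neuronal culture these transcripts are usually a sign of remaining dividing cells such as neural progenitors.

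The totals were 10490535 and 18381021 estimated counts in the DKO footprint libraries, 19753419 and 14450410 in the WT footprint libraries, 44786643 and 15862034 in the DKO RNA libraries and 14762047 and 22352224 in the WT RNA libraries. The members had between 19 and 3795 counts in a library, with Cenpe the lowest. The transcript set held 2 isoforms of Cenpe, of 582 and 747 bases, and its counts come from these alone. WT replicate 2 stood apart in both assays: the leading principal component of the tested genes held 56.0% of the variance of the footprint libraries and 56.4% of that of the RNA libraries and set this culture against the other 3. Summed Eif4g1 was at 154 and 287 CPM in DKO footprints and 300 and 263 CPM in WT footprints, and summed Eif4g3 at 164 and 172 CPM in DKO and 169 and 153 CPM in WT. In RNA Eif4g1 was at 125 and 305 CPM in DKO and 288 and 280 CPM in WT, and Eif4g3 at 103 and 138 CPM in DKO and 120 and 128 CPM in WT. These gene sums do not show a microexon and so do not check the genotype labels. The neuron markers were present in every library, except that Slc17a7, the vesicular glutamate transporter typical of mature cortex, was at 0 to 4 counts, whereas Slc17a6, its relative, was at 74.3 to 234 footprint CPM.

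The promoters of the 2 groups are shown next because they differ in sequence in a way that was independent of the read counts. RefSeq windows from 250 bases before to 50 bases after the annotated start (GRCm38.p6) matched 18 mitosis members, Mki67 included, and 15 replication members. The letters searched, on both strands, were TTTGAA and TTCGAA for the CHR element, CCAAT for the NF-Y site, and TTTCGCGC, TTTGGCGC, TTTCCCGC and TTTGCCGC for the E2F site. CHR letters were in 14 of 18 mitosis promoters (77.8%) and 2 of 15 replication promoters (13.3%), against 19.4% of 27025 windows of all genes. Within 50 bases of the start they were in 12 mitosis promoters (66.7%) and 1 replication promoter (6.67%), against 5.30% of all genes. E2F letters were in 1 mitosis promoter (5.56%), that of Cdk1, and in 6 of 15 replication promoters, those of Cdc6, Cdt1, Mcm3, Mcm5, Mcm6 and Pola1, against 2.34% of all genes. CCAAT letters were common in both groups, in 15 of 18 mitosis promoters (83.3%) and 12 of 15 replication promoters (80.0%), against 37.8% of all genes. A match of letters is a description of the window and does not show that a factor binds there.

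Stretches of 6 members are printed from 160 bases before to 30 bases after the start. CHR, CCAAT and E2F letters of either strand are in capitals. The 6 were picked as examples and do not stand for all members. CHR and CCAAT letters occurred together in 13 of 18 mitosis windows (72.2%), against 7.57% of all genes. The window of Ccnb1, for one, held CCAAT letters and no CHR. In each of the 4 mitosis promoters shown, CCAAT letters lie ahead of a CHR near the start. Ccnb2 (chr9:70421525-70421714, minus strand) and Cdk1 (chr10:69352883-69353072, minus strand) encode cyclin B2 and the kinase it activates, Cdc20 (chr4:118437314-118437503, minus strand) an activator of the anaphase-promoting complex, and Kif23 (chr9:61946770-61946959, minus strand) a kinesin of the central spindle. The replication promoters of Mcm5 (chr8:75109349-75109538, plus strand) and Mcm6 (chr1:128359676-128359865, minus strand), both subunits of the replicative helicase, hold E2F letters and no CHR. In each of these, 2 E2F matches on opposite strands overlap and form a capital run longer than a single match.
Ccnb2: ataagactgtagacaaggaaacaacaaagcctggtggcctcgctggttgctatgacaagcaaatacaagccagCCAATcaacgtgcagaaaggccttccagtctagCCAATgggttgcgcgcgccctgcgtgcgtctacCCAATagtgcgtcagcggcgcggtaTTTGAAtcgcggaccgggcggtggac
Cdk1: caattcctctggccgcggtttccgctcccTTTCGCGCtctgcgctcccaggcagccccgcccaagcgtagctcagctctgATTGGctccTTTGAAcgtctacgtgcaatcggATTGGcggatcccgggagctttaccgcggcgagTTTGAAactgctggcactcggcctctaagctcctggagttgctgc
Cdc20: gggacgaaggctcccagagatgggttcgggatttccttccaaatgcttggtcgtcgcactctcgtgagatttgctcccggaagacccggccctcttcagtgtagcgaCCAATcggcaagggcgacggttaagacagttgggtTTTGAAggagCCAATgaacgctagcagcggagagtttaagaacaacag
Kif23: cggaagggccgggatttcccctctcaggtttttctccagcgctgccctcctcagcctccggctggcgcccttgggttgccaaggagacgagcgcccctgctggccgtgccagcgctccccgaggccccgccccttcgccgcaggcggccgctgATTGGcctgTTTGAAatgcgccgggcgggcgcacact
Mcm5: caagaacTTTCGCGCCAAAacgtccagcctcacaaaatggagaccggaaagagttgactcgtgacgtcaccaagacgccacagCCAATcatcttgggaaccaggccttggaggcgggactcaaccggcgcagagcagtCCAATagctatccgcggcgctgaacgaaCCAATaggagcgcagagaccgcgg
Mcm6: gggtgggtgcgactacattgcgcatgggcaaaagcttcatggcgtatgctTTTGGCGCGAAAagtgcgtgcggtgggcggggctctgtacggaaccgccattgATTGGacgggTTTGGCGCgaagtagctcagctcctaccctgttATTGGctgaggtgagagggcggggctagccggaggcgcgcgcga

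**Figure D1:**
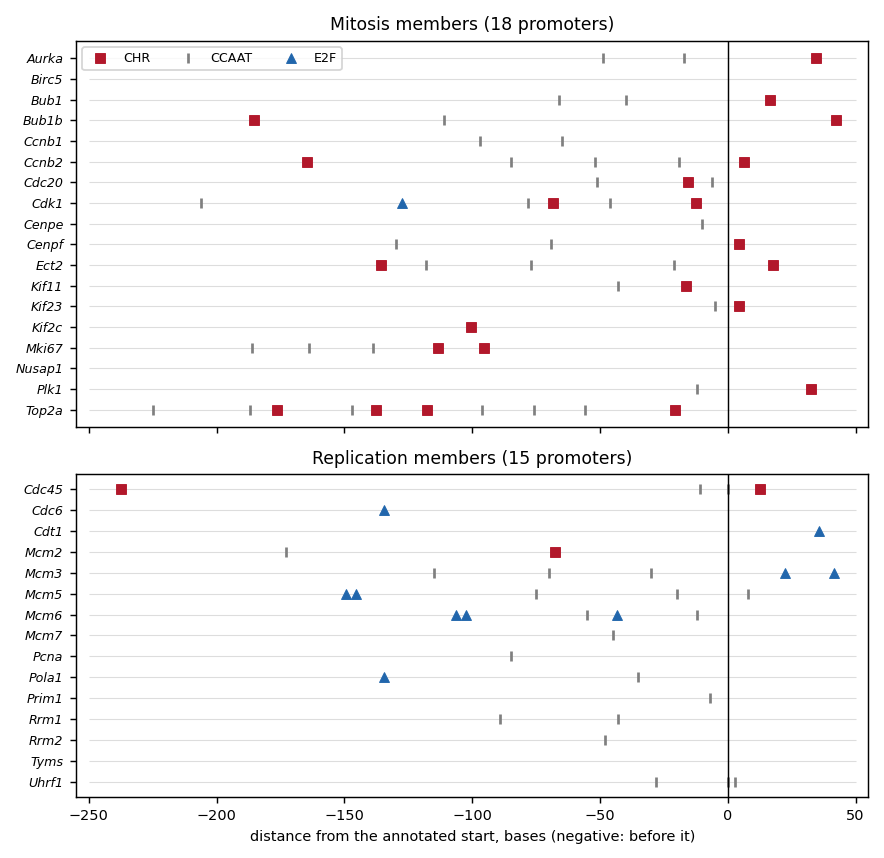
Positions of CHR (red squares), CCAAT (grey ticks) and E2F letters (blue triangles) in the promoter windows of 18 mitosis members (upper panel) and 15 replication members (lower panel), as distance in bases from the annotated start. Of the mitosis promoters, 12 hold a CHR within 50 bases of the start, against 1 of the replication promoters.

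The members were not silent in these cultures, and their levels differed widely. Levels per length were counts per kilobase, of transcript for RNA and of coding sequence for footprints. These values were scaled to their own total in each library, as for CPM but without TMM scaling. They were then averaged over the 4 libraries of the assay. The highest RNA level per length was that of Pcna, the sliding clamp of DNA polymerases, at 125. Top2a, the topoisomerase that untangles chromosomes, followed at 46.5, Ccnb1, cyclin B1, at 26.4 and Mcm7 at 25.5. The lowest RNA levels per length were those of Plk1 at 4.85, Foxm1, a transcription factor of mitosis genes, at 3.99 and Cdc6, which loads the helicase, at 3.74. In footprints per length Pcna was again at the top at 185, Cdk1 followed at 42.8 and Birc5, survivin of the chromosomal passenger complex, at 33.2, and Bub1 was at the bottom at 1.56. The summed level per length of the mitosis members was 0.56 times that of the replication members in footprints and 0.74 times in RNA. Pcna made up much of the replication sum, and without it the ratio was 1.07 in footprints and 1.14 in RNA.

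The comparison of DKO with WT asked whether the double knockout altered the abundance or ribosome occupancy of these genes. No member passed the threshold of an adjusted p under 0.05 (edgeR quasi-likelihood test, Benjamini-Hochberg adjusted over 12898 genes) in footprints, where 0.00775% of all tested genes did, or in RNA, where 0.0155% did. DESeq2 also called 0 members in both, and called 0.0388% of all genes in footprints and 0.101% in RNA. Every member nevertheless had a negative log2 fold change (DKO over WT) in both assays, 39 of 39, against 49.2% of all tested genes in footprints and 50.4% in RNA. The median log2 fold change was -0.49 for mitosis members and -0.27 for replication members in footprints, and -0.50 and -0.32 in RNA, beside 0.0028 and -0.0015 over all tested genes. In data simulated from these libraries the test recovered 84 of 100 simulated 2-fold changes in footprints and 78 of 100 in RNA. For changes of 1.5-fold it recovered 49 and 45 of 100. The simulated libraries varied independently around 1 mean per gene, with no culture set apart, and the changed genes were picked from all genes. The median SE was 0.205 for members and 0.128 over all tested genes in footprints, and 0.198 and 0.124 in RNA. The recovery therefore does not give the power for these members. At an unadjusted p under 0.05 edgeR had 8 mitosis members and 1 replication member in footprints, against 5.62% of all genes, and 11 mitosis members and 6 replication members in RNA, against 5.57%.

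Much of that difference lay in WT replicate 2. This library was the highest of the 4 for all 39 members in footprints and for all 39 in RNA, whereas it was the highest for 28.7% and 32.5% of all tested genes. Against WT replicate 1 it was higher by a median of 0.55 for mitosis members and 0.27 for replication members in footprints, and by 0.45 and 0.35 in RNA (log2). The DKO libraries set against WT replicate 1 were lower by smaller amounts. In footprints the median log2 differences were -0.19 and -0.15 for mitosis members and -0.11 and -0.11 for replication members, in DKO replicates 1 and 2. In RNA they were -0.37 and -0.14 for mitosis members and -0.15 and -0.06 for replication members. Without the culture of WT replicate 2, 34 of 39 members had a negative fold change in each assay, the medians were -0.17 for mitosis and -0.12 for replication members in footprints and -0.26 and -0.09 in RNA, and 0 members passed the threshold. Without the culture of WT replicate 1 instead, 17 members passed in footprints, where 3.93% of all genes did, and 15 in RNA, where 3.58% did. That fit has a lone WT library per assay, which is assumed to vary as the DKO libraries do. Both DKO libraries lay below both WT libraries for 27 members in footprints and 28 in RNA, against 16.2% and 18.9% of all tested genes. In bulk samples fewer cells of a type and less RNA per cell cannot be told apart.

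**Figure D2:**
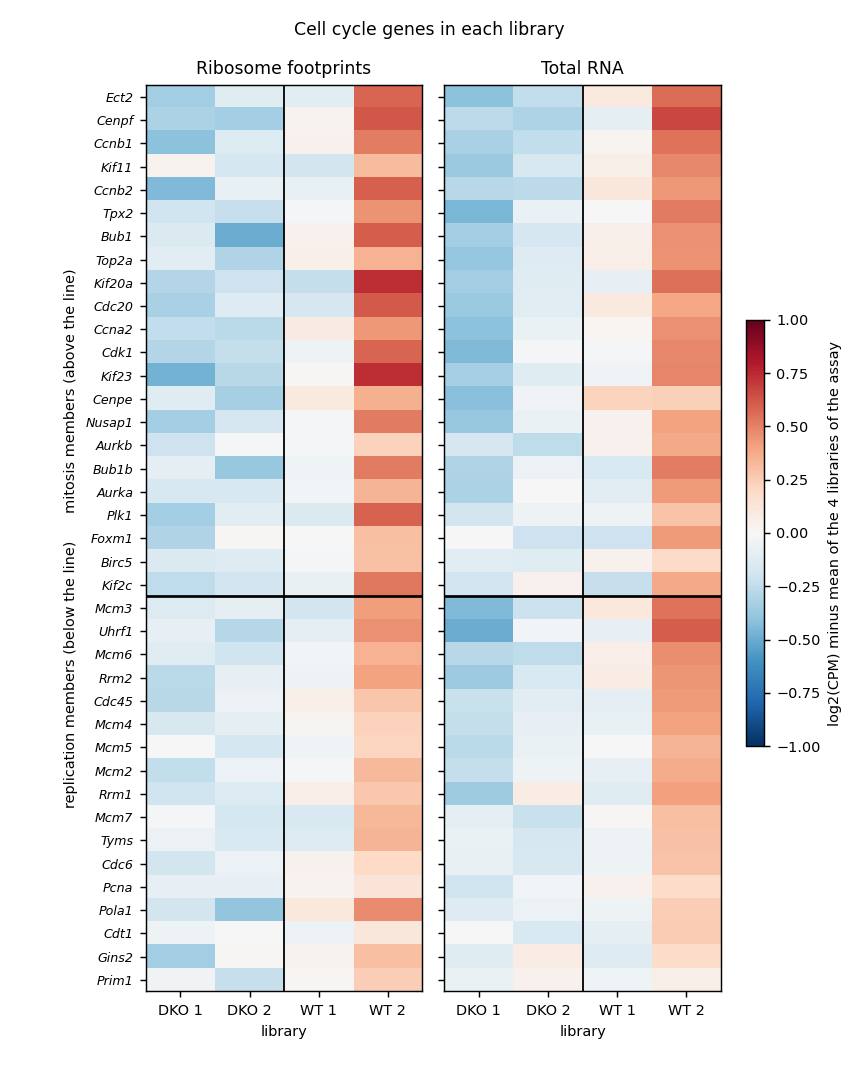
Each of the 39 members (rows, mitosis above the line and replication below it) in the 4 footprint libraries (left) and the 4 RNA libraries (right), as log2 CPM minus the mean of the 4 libraries of that assay, red for above and blue for below. The WT 2 column is the highest for every member in both assays, and the 2 DKO columns are mostly below 0.

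Markers of pluripotent cells stood out in the same culture, and those of other cell types did so in part. The pluripotent markers Pou5f1, Oct4 of ES cells, and Dppa5a were near 0 in 3 cultures and present in WT replicate 2. Pou5f1 had 0 and 3 footprint counts in DKO and 1 and 54 in WT, and 2 and 1 RNA counts in DKO and 5 and 57 in WT. Dppa5a had 0 and 7 footprint counts in DKO and 13 and 160 in WT, and 9 and 6 RNA counts in DKO and 2 and 115 in WT. In each case WT replicate 2 stood far above the other 3 libraries of its assay. The summed footprint level of 6 pluripotent markers was 23.2 and 26.4 CPM in DKO and 28.3 and 48.3 CPM in WT, most of it from Esrrb, which is near even across libraries. The 11 progenitor and radial glia markers summed to 3573 and 3974 CPM in DKO footprints and 4482 and 4867 CPM in WT footprints, 10 mesenchymal and endothelial markers to 582 and 190 CPM in DKO and 346 and 929 CPM in WT, and 8 oligodendrocyte lineage markers to 406 and 446 CPM in DKO and 525 and 713 CPM in WT. No tested marker of any of these lists was called. Of the 6 pluripotent markers only 1, Esrrb, passed the filter, so Pou5f1 and Dppa5a were not tested. The progenitor sum came mostly from Fabp7, which was at 2868 and 3260 CPM in DKO footprints and 3769 and 3708 CPM in WT footprints and so was not higher in WT replicate 2 than in WT replicate 1. Cldn11, a claudin of oligodendrocytes, had a log2 fold change of -0.61 ± 0.18 in footprints and -0.86 ± 0.18 in RNA. Of the 8 tested astrocyte markers 5 were negative in footprints and 6 in RNA, with medians of -0.13 and -0.26. Among them S100b and Slc1a3 were at -0.37 ± 0.13 and -0.47 ± 0.17 in RNA, and the radial glia gene Fabp7 at -0.26 ± 0.13. Of the 9 tested neuron markers 7 were positive in footprints and 5 in RNA, with medians of 0.07 and 0.05. Nefl and Rbfox3 were at 0.31 ± 0.13 and 0.19 ± 0.11 in RNA. Slc17a6 had the highest footprint fold change of these markers, 0.83 ± 0.55 (log2). It was at 234 and 194 CPM in DKO footprints and 166 and 74.3 CPM in WT footprints, lowest in WT replicate 2. The 10 neuron markers summed to 7858 and 8318 CPM in DKO footprints and 8470 and 6978 CPM in WT footprints, with WT replicate 2 the lowest. The 6 microglia and blood markers stayed under 1 CPM in sum in the footprint libraries. The 8 astrocyte markers summed to 1957 and 1890 CPM in DKO footprints and 2007 and 2095 CPM in WT footprints. The part of these cells in the difference of the cell cycle genes was not tested.

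Among the mitosis members, a kinesin had the largest footprint difference. Kif23 (chr9:61915905-61946774, minus strand of GRCm38), a motor of the central spindle that is needed to finish cell division, was at 7.18 and 8.22 CPM in DKO footprints, against 10.03 and 16.6 CPM in WT footprints. Both DKO libraries were below both WT libraries, and the WT libraries differed from each other by more than the lower of them did from DKO. The log2 fold change was -0.78 ± 0.26 (SE; adjusted p = 0.836, edgeR), and -0.37 without the culture of WT replicate 2. Kif11, the motor that pushes spindle poles apart, was at 17.5 and 20.2 CPM in DKO RNA and 23.6 and 31.5 CPM in WT RNA, and the log2 fold change was -0.56 ± 0.19 (edgeR adjusted p = 0.851). In footprints Kif11 overlapped between the genotypes, at 20.4 and 17.6 CPM in DKO and 17.5 and 24.8 CPM in WT. The other kinesins, Kif20a and Kif2c and the kinetochore motor Cenpe, had footprint log2 fold changes of -0.56, -0.47 and -0.46.

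Among the cyclins and checkpoint kinases WT replicate 2 was again the highest library. Ccna2, cyclin A2 of S phase and mitotic entry, was at 26.3 and 25.9 CPM in DKO footprints, against 33.0 and 42.1 CPM in WT footprints, with log2 fold change -0.52 ± 0.18 (SE; edgeR adjusted p = 0.836). Bub1, a kinase of the spindle checkpoint, was at 6.04 and 4.73 CPM in DKO footprints, against 6.87 and 10.2 CPM in WT footprints. Its log2 fold change was -0.67 ± 0.25 (edgeR, adjusted p = 0.836). For both genes DKO and WT did not overlap, and WT replicate 2 was the higher WT library. Ccnb1, Ccnb2 and Cdk1 had footprint log2 fold changes of -0.55, -0.52 and -0.56, and Foxm1 one of -0.28. The checkpoint protein Bub1b was at -0.50, the Polo kinase Plk1 at -0.47, and the Aurora kinases Aurka and Aurkb at -0.32 and -0.21.

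Top2a (chr11:98992943-99024189, minus strand) was the mitosis member with the smallest p in RNA. It was at 77.7 and 92.6 CPM in DKO RNA, against 106 and 139 CPM in WT RNA, and the log2 fold change was -0.53 ± 0.15 (edgeR adjusted p = 0.851). Ect2, which activates RhoA at the cleavage furrow, was at 8.68 and 9.76 CPM in DKO RNA, against 12.3 and 17.01 CPM in WT RNA, with log2 fold change -0.69 ± 0.23 (SE; edgeR adjusted p = 0.851). Neither gene overlapped between the genotypes in RNA. The remaining spindle and kinetochore members Cenpf, Nusap1, Cdc20, Tpx2 and Birc5 had footprint log2 fold changes of -0.68, -0.52, -0.48, -0.44 and -0.28.

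The replication members had the smaller median differences. Of the 6 MCM subunits, which form the helicase that opens DNA, Mcm6 had the smallest p of any member in RNA. It was at 22.98 and 23.4 CPM in DKO RNA, against 29.2 and 38.5 CPM in WT RNA. Its log2 fold change was -0.55 ± 0.15 (edgeR, adjusted p = 0.851). Mcm3 was at 9.28 and 10.9 CPM in DKO RNA, against 13.5 and 18.4 CPM in WT RNA, and the log2 fold change was -0.69 ± 0.21 (edgeR adjusted p = 0.851). Neither subunit overlapped between the genotypes in RNA. In footprints Mcm6 was at 40.9 and 38.7 CPM in DKO and 43.4 and 56.4 CPM in WT, with log2 fold change -0.33 ± 0.15 (SE; edgeR adjusted p = 0.849), and Mcm3 overlapped at 21.5 and 22.2 CPM in DKO and 20.7 and 31.6 CPM in WT. The other 4 subunits, Mcm2, Mcm4, Mcm5 and Mcm7, had RNA log2 fold changes of -0.32, -0.36, -0.35 and -0.32. The loading factors Cdc6 and Cdt1 were at -0.25 and -0.17 in RNA, and the helicase partners Cdc45 and Gins2 at -0.37 and -0.07.

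Among the genes of DNA synthesis, Pola1 (chrX:93304767-93632155, minus strand of GRCm38), the catalytic subunit of DNA polymerase alpha, had the smallest p of any member in footprints. It was at 10.2 and 8.81 CPM in DKO footprints, against 12.5 and 16.1 CPM in WT footprints. Its log2 fold change was -0.60 ± 0.17 (edgeR, adjusted p = 0.836). Prim1, the primase that works with it, was at 27.1 and 23.6 CPM in DKO footprints, against 28.0 and 32.9 CPM in WT footprints, and the log2 fold change was -0.27 ± 0.13 (edgeR adjusted p = 0.849). The genotypes did not overlap for either gene, though DKO replicate 1 and WT replicate 1 were close for Prim1. In RNA Prim1 was the member with the smallest difference, with a log2 fold change of -0.03. Rrm2, the subunit of ribonucleotide reductase that limits deoxynucleotide supply, was at 17.9 and 20.7 CPM in DKO RNA, against 24.2 and 31.2 CPM in WT RNA, with log2 fold change -0.54 ± 0.17 (SE; edgeR adjusted p = 0.851). Its partner Rrm1 and the thymidylate synthase gene Tyms were at -0.32 and -0.25 in RNA. Pcna was at -0.23, and Uhrf1, which helps copy DNA methylation to the new strand, at -0.57.

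Set side by side, the mitosis members had larger differences between DKO and WT than the replication members, by sums and by medians, a comparison over members that was not tested. Their summed footprint level was 385 ± 2.25 CPM in DKO and 531 ± 126 CPM in WT, and that of the replication members 613 ± 0.456 CPM in DKO and 728 ± 93.0 CPM in WT (SD, 2 libraries each). In RNA the mitosis sum was 319 ± 33.0 CPM in DKO and 447 ± 95.5 CPM in WT, and the replication sum 378 ± 26.2 CPM in DKO and 467 ± 76.6 CPM in WT. The ratio of the mitosis sum to the replication sum was 0.625 and 0.631 in DKO footprints, against 0.667 and 0.781 in WT footprints. In RNA it was 0.822 and 0.863 in DKO and 0.920 and 0.988 in WT. Both DKO libraries were below both WT libraries in each assay. Without Pcna the ratio was 0.910 and 0.919 in DKO footprints, against 0.972 and 1.08 in WT footprints, and 1.05 and 1.10 in DKO RNA, against 1.181 and 1.22 in WT RNA. An exact permutation test over the 4 libraries of an assay gave a two-sided p of 0.333 for the ratio, the smallest that 2 against 2 allows, so that this design cannot reach 0.05. The difference of the median log2 fold changes, mitosis minus replication, was -0.22 in footprints, where it was -0.051 without the culture of WT replicate 2, and -0.18 in RNA, where it was -0.090 without the culture of DKO replicate 1. Between replicate libraries the same difference had an SD of 0.11 in footprints and 0.042 in RNA. The WT cultures differed from each other in the same order, with a ratio of 0.781 in replicate 2 against 0.667 in replicate 1 in footprints.

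**Figure D3:**
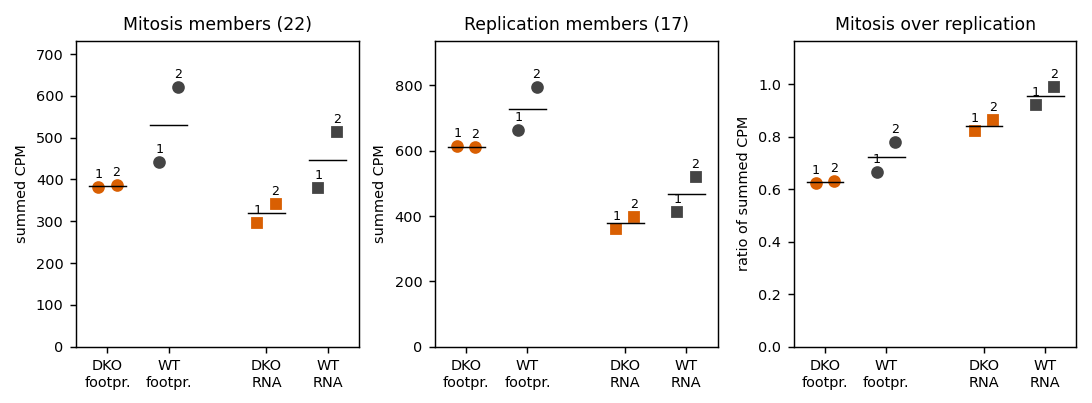
Summed CPM of the 22 mitosis members (left), of the 17 replication members (middle) and the ratio of the mitosis to the replication sum (right), for DKO (orange) and WT (grey) libraries of footprints (circles) and RNA (squares); digits are replicate numbers and bars the means of 2 libraries. In every panel both DKO libraries lie below both WT libraries of the same assay, with WT replicate 2 the highest.

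Further genes of the same processes were set beside the members. Of 47 measured other mitosis genes 0 were called in either assay. Their median log2 fold change was -0.42 in footprints, with 46 of 47 negative, and -0.41 in RNA, with 46 of 47 negative. Of 42 other replication genes 0 were called, with medians of -0.17 in footprints, 38 negative, and -0.22 in RNA, 37 negative. Aspm, a spindle pole protein of dividing progenitors, was at 6.35 and 7.62 CPM in DKO footprints, against 10.4 and 15.04 CPM in WT footprints (log2 fold change -0.84 ± 0.24), and Hmmr, a spindle protein, at 14.2 and 13.4 CPM in DKO and 17.5 and 22.96 CPM in WT (-0.55 ± 0.16). Pole, a replicative polymerase subunit, was at 3.96 and 3.66 CPM in DKO footprints and 4.90 and 8.28 CPM in WT footprints (-0.78 ± 0.26). In RNA the mitosis genes Pbk and Nuf2 were at -0.72 ± 0.18 and -0.61 ± 0.16, and the thymidine kinase gene Tk1 at -0.47 ± 0.16. None of these passed the threshold.

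Genes that govern entry into the cycle had no called member either. The 6 G1 cyclins and kinases had a median log2 fold change of -0.24 in footprints, with 6 of 6 negative, and -0.14 in RNA, with 5 of 6 negative, and 0 were called. Cdk6 had the most negative footprint value, at 13.0 and 11.9 CPM in DKO and 14.1 and 28.0 CPM in WT (-0.75 ± 0.41), and the WT libraries spread more than the genotypes. Cdk2 in footprints was at -0.32 ± 0.19 and Cdk4 in RNA at -0.12 ± 0.12. The 12 cell cycle inhibitors had medians of 0.01 in footprints and 0.03 in RNA, with 5 of 12 negative in each and 0 called. Cdkn1a, the p21 inhibitor of cyclin-dependent kinases, had values of the opposite sign to those of the members. It was at 164 and 141 CPM in DKO footprints, against 115 and 113 CPM in WT footprints, a log2 fold change of 0.42 ± 0.11, and at 27.5 and 25.4 CPM in DKO RNA, against 19.2 and 22.2 CPM in WT RNA, a log2 fold change of 0.35 ± 0.11 (adjusted p = 0.836 and 0.851, edgeR). The 2 WT libraries were close to each other for this gene in footprints. The pocket protein gene Rbl1 was at -0.50 ± 0.18 in footprints, and Cdkn1b, the p27 inhibitor, at -0.31 ± 0.12 in RNA.

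Translational efficiency, the change in footprints relative to the change in RNA, was tested as an interaction in the same model. No member passed the threshold, as was so for 0 of 12898 genes (0.0%), and 0 members had an unadjusted p under 0.05, against 0.853% of all genes; DESeq2 also called 0 members, and called 0.00775% of all genes. The median interaction was -0.02 for mitosis members and 0.07 for replication members on the log2 scale. The smallest p-values were those of Kif11, at 0.41 ± 0.27, which was lower in DKO RNA and overlapped in footprints, and Pola1, at -0.39 ± 0.22, which was lower in DKO footprints and at -0.20 in RNA (adjusted p = 0.9997 for both, edgeR). In simulated data of the same kind the interaction test recovered 63 of 100 changes of 2-fold and 10 of 100 of 1.5-fold. Changes of the smaller size were thus mostly not detectable there. The median SE of the interaction was 0.28 for members and 0.18 over all tested genes.

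**Figure D4:**
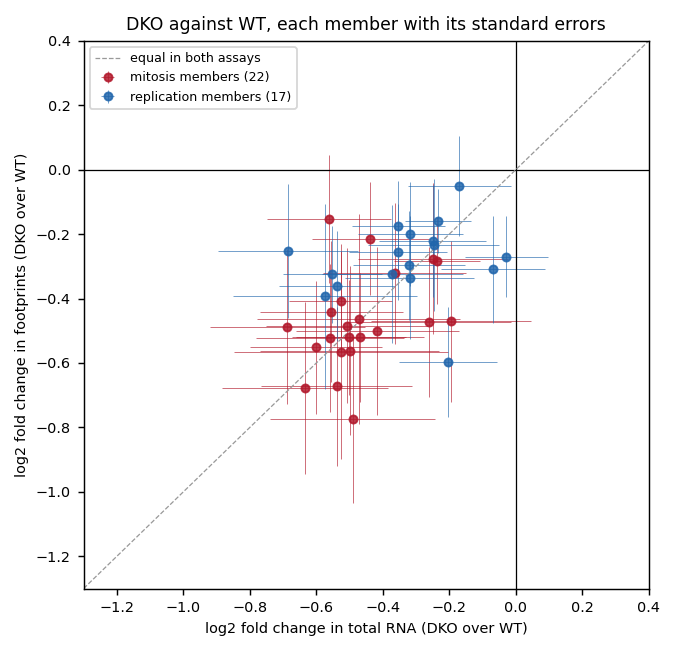
Log2 fold change (DKO over WT) of each member in RNA (horizontal axis) and in footprints (vertical axis), with standard errors, for 22 mitosis members (red) and 17 replication members (blue). All 39 points lie below 0 on both axes and scatter about the dashed line of equal change.

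Footprints relative to RNA, over both genotypes, gave the differences among members that passed a test. This ratio compares counts of ribosome-protected fragments, which come mainly from coding sequence, with counts from whole transcripts, and is relative to the typical gene. It is common for a gene to differ here: 74.8% of all tested genes passed, 36.5% higher and 38.2% lower. Of 22 mitosis members 7 were called higher and 0 lower, with a median log2 ratio of 0.20, and of 17 replication members 12 were called higher and 2 lower, with a median of 0.49, beside -0.01 over all tested genes. With the culture as a block 23 members were called higher and 5 lower, where 81.1% of all genes passed.

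Among the mitosis members the ratio was highest for Plk1 and Cdk1. Plk1 (chr7:122159439-122169873, plus strand), the Polo kinase, had log2 ratios of 1.34 and 1.44 in the DKO cultures and 1.40 and 1.80 in the WT cultures, 1.51 ± 0.17 in the fit (adjusted p = 6.63e-06, edgeR). Cdk1 had 1.40 and 1.02 in DKO and 1.22 and 1.35 in WT, 1.25 ± 0.19 in the fit (adjusted p = 0.000697, edgeR). The anaphase activator Cdc20 had 0.87 and 0.81 in DKO and 0.55 and 1.05 in WT. All cultures were above 0 for these 3 genes, and the genotypes overlapped. The Aurora kinase of the passenger complex, Aurkb, had 0.65 and 0.93 in DKO and 0.64 and 0.54 in WT, and the spindle pole kinase Aurka 0.67 and 0.35 in DKO and 0.59 and 0.42 in WT. Its activator Tpx2 had 0.71 and 0.29 in DKO and 0.43 and 0.38 in WT, and Ccnb2 0.23 and 0.58 in DKO and 0.20 and 0.56 in WT. For Aurkb both DKO cultures were above both WT cultures, and the genotypes overlapped for Aurka, Tpx2 and Ccnb2. All cultures were above 0 for these genes too. Aurka, Tpx2 and Ccnb2 nevertheless lost the call when footprints and RNA were scaled apart, with adjusted p = 0.143, 0.243 and 0.322 (edgeR), and without the culture of DKO replicate 1, with adjusted p = 0.117, 0.168 and 0.083 (edgeR). Ccnb2 also lost it without the culture of DKO replicate 2 (adjusted p = 0.255, edgeR). Leaving out 1 library ended the call of Aurka for RNA of DKO replicate 1 (edgeR adjusted p = 0.0534), that of Tpx2 for footprints of either DKO replicate, footprints of WT replicate 2 or RNA of DKO replicate 1 (at most 0.0801), and that of Ccnb2 for footprints of DKO replicate 2 or WT replicate 2 or RNA of either DKO replicate or WT replicate 1 (at most 0.160). Tpx2 lost it when only protein-coding isoforms were counted (edgeR adjusted p = 0.0754), and Aurkb turned to -0.28 when only protein-coding isoforms were counted. The other 15 mitosis members ranged down to -0.37 for Bub1 and were not called.

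Among the replication members the clamp gene Pcna and the ribonucleotide reductase genes led. Pcna (chr2:132249162-132253314, minus strand) had log2 ratios of 1.32 and 1.15 in DKO and 1.19 and 1.14 in WT, 1.20 ± 0.07 in the fit (adjusted p = 2.38e-08, edgeR). Rrm1 had 1.30 and 0.93 in DKO and 1.33 and 0.99 in WT, and Rrm2 0.95 and 0.93 in DKO and 0.74 and 0.82 in WT. All cultures were above 0 for these genes, and the genotypes overlapped for Pcna and Rrm1. The 6 MCM subunits were all called higher. Mcm3 had 1.22 and 1.03 in DKO and 0.61 and 0.78 in WT, and Mcm6 0.83 and 0.72 in DKO and 0.57 and 0.55 in WT. Mcm2 had 0.62 and 0.62 in DKO and 0.69 and 0.58 in WT, and Mcm5 0.90 and 0.51 in DKO and 0.58 and 0.50 in WT. Mcm7 had 0.53 and 0.50 in DKO and 0.29 and 0.49 in WT, and Mcm4 0.53 and 0.44 in DKO and 0.56 and 0.28 in WT. For Rrm2, Mcm3, Mcm6 and, narrowly, Mcm7 both DKO cultures were above both WT cultures, whereas Mcm2, Mcm4 and Mcm5 overlapped. How many of all genes separate by genotype in this ratio was not counted, and no interaction passed the threshold.

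The remaining replication members spread in both directions. Cdt1, the loading factor, had 0.70 and 0.90 in DKO and 0.78 and 0.60 in WT. Cdc45, the helicase partner, had 0.45 and 0.55 in DKO and 0.65 and 0.36 in WT, and Prim1 0.52 and 0.21 in DKO and 0.55 and 0.68 in WT. The genotypes overlapped for Cdt1 and Cdc45, whereas both DKO cultures were below both WT cultures for Prim1. Pola1 was the member with the lowest ratio, at -1.12 and -1.40 in DKO and -0.90 and -0.83 in WT, -1.07 ± 0.11 in the fit (adjusted p = 3.31e-06, edgeR). Its DKO cultures too were below its WT cultures, and no interaction passed the threshold. The range of its 4 cultures did not overlap that of Prim1, its partner in the same enzyme complex. Tyms was also called lower, at -0.49 and -0.48 in DKO and -0.58 and -0.45 in WT. Cdc6, Uhrf1 and Gins2 were not called, at 0.23, 0.26 and -0.24. With footprints and RNA scaled apart Mcm4, Mcm7 and Cdc45 lost the call, with adjusted p = 0.087, 0.114 and 0.138 (edgeR), and Cdc45 also lost it without the culture of DKO replicate 1 (0.0634) or DKO replicate 2 (0.0989), or without the footprint library of DKO replicate 2 (0.0513).

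This ratio is not corrected for length. Coding sequence made up a median of 71.6% of the longest protein-coding transcript for mitosis members and 65.4% for replication members, against 49.5% over all tested genes. For Cenpe and Cenpf that transcript had 582 and 3001 bases in this set, of which 100% and 95.2% were coding. With footprints taken per length of coding sequence and RNA per length of transcript, the median log2 ratio was -0.01 for mitosis members and 0.22 for replication members, beside 0.09 over all genes. The sign changed for 6 of 22 mitosis members and 8 of 17 replication members. Plk1 at 0.78, Cdk1 at 2.53, Pcna at 1.14, Rrm1 at 0.86 and Rrm2 at 0.75 stayed positive, and Pola1 at -1.80 stayed the lowest. The value of Cdk1 rests on the length of its longest protein-coding isoform, of which 20.4% is coding. That isoform held 32.3% of the footprint counts and 59.8% of the RNA counts of the gene. Tyms had the opposite sign on this scale, at 0.26. Of the MCM subunits Mcm3, Mcm5 and Mcm6 stayed positive, at 0.22, 0.22 and 0.52, and Mcm2, Mcm4 and Mcm7 were at -0.08, -0.10 and -0.10.

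**Figure D5:**
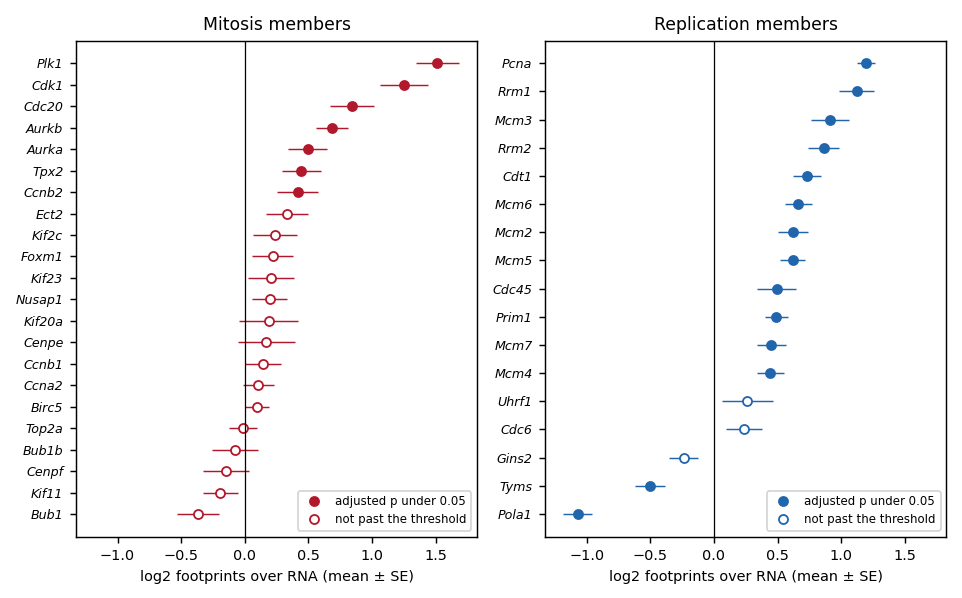
Log2 ratio of footprints to RNA over both genotypes with its standard error, for the mitosis members (left) and the replication members (right), ordered by value; filled circles passed an adjusted p under 0.05 and open circles did not. Of the mitosis members 7 were called higher and 0 lower, and of the replication members 12 higher and 2 lower. Of all tested genes 36.5% were called higher and 38.2% lower.

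The assignment of footprints to isoforms limits some of these values. Protein-coding isoforms held 7.07% of the footprint counts of Gins2, 15.3% of those of Ccnb1, 37.0% for Cenpe and 46.0% for Aurkb. They held 50.7% for Ect2, 53.2% for Cdk1, 59.4% for Tyms and 66.9% for Foxm1. The rest was assigned to isoforms annotated as retained introns, processed transcripts or targets of nonsense-mediated decay, and the gene sums include all of these. Exons of Cdc45, Mcm7, Gins2, Ccna2, Cdc20, Kif20a, Nusap1 and Foxm1 overlap those of a neighbouring gene of the table, and the strand setting of the counting is not given, so that reads of such neighbours cannot be told apart there.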

How the data were processed

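The authors deposited a table of estimated counts per Ensembl transcript for 8 libraries, whole numbers throughout. Tools named in the submitters' processing notes were kallisto, Bowtie, Trimmomatic and FastQC; versions, settings, genome build and strand are not given. Here 60444 of 60528 transcripts were matched to GENCODE M21 (GRCm38) and summed per gene; the other 84 held at most 0.151% of counts. All columns belonged to the series. Genes passing edgeR's filter (minimum count 10) in both assays were fitted with group means, TMM factors and robust quasi-likelihood (edgeR 4.0.16, R 4.3.3), leaving 4 residual degrees of freedom. The members, lists, tests and alternatives were chosen with earlier results of these data known. All members are accounted for; values in every library are given for members called in a contrast and for the 3 smallest p-values per group in footprints and RNA (1 in efficiency), and for other lists for up to 3 called genes or else from the 2 smallest p-values; some of these list genes are not reported here.

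Replicate differences correlated at r = 0.605 between WT footprints and WT RNA and at 0.211 between DKO footprints and DKO RNA over 12898 genes, and culture codes in the labels link them, so footprints and RNA were also compared with the culture as a block. Between genotypes the numbers do not pair libraries (r = -0.132 in footprints and -0.128 in RNA). The alternatives included RLE factors, separate TMM factors for each assay, other filters, protein-coding isoforms, DESeq2 1.42.0, each assay alone, blocks and leaving out each library or culture. Promoter windows were RefSeq's. Scripts were tested on simulated data, in which 15 unchanged genes were called in footprints, 15 in RNA and 14 in efficiency.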

Additional observations from a re-analysis of the deposited data

How the results depend on the processing

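No alternative changed the sign of a median DKO against WT fold change. Members called in footprints (0), RNA (0) and efficiency (0) stayed at 0, except without the culture of WT replicate 1 (17 in footprints, 15 in RNA). With the number as a replicate block 0 members were called in either assay, and calls over all genes were 11 in footprints and 10 in RNA, against 1 and 2 without it; crossed numbers, chosen after seeing the data, gave 9 and 11. DESeq2 gave 5 and 13, and no filter 3 and 6. Without the culture of WT replicate 1 all-gene calls were 520 and 473. Over the fits that left out a library or a culture, the median log2 fold change ranged in footprints from -0.76 to -0.17 for mitosis and -0.42 to -0.12 for replication members, in RNA from -0.70 to -0.25 and -0.51 to -0.078, and their difference, mitosis minus replication, from -0.33 to -0.051 in footprints and -0.21 to -0.090 in RNA. The lowest sizes all came without WT replicate 2, except that of the difference in RNA, which came without DKO replicate 1. Leaving Top2a, Ccna2 and Foxm1 out of the mitosis group changed no direction.

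For footprints over RNA, scaling each assay apart moved the median of all genes to -0.24, of mitosis members to -0.028 and of replication members to 0.26, with 5 members called lower; relative to all genes both groups stayed higher. Protein-coding isoforms alone gave 0.63 for replication members and 4 called lower. The culture block gave 5 lower and 23 higher. Per length, chosen after seeing the data, the medians were -0.013 for mitosis and 0.22 for replication members. Leaving out a library or culture gave 0.074 to 0.37 and 0.45 to 0.64, with 2 to 5 lower. Of 677 alternatives for named members 641 kept direction and call, 24 lost the call, 11 gained it and 1, Aurkb with protein-coding isoforms (-0.28), turned direction. With the longest protein-coding isoform as length the RNA level ratio of mitosis to replication was 0.70. Without Pcna, chosen after seeing the data, the level ratio was 1.07 in footprints and 1.14 in RNA. TTTGAA alone was in 13 mitosis and 2 replication promoters, and any window of the gene, chosen after seeing the data, gave 14 and 3.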
